A study of Mus musculus with 4 samples.

Results

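Dlgap1, Dlgap2, Cdh13, Pde4d, Sorcs2 and Akap6 are 6 long mouse genes that each carried many MyoD peaks in cultured myotubes, the multinucleated cells formed when myoblasts fuse. They were chosen by name, for the number of peaks in their gene bodies, out of 5793 genes whose body is listed in the deposited files. Their bodies held 53 of the 11907 peaks in the list with pyruvate and 102 of the 19338 peaks in the list without pyruvate. The peak numbers are therefore a description of what chose the genes, and no test was made on them.

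The study mapped MyoD by ChIP-seq, in which DNA bound by a protein is pulled down with an antibody and sequenced, in 4 samples of myotubes differentiated for 5 days from primary myoblasts of C57BL/6 mice aged 2 weeks. A MyoD ChIP (antibody SC-760) and an input were made from myotubes kept for 24 hours in differentiation medium with pyruvate, and the same pair from myotubes kept without it. Each ChIP sample gave 1 peak list, and the inputs were not analysed here. Each condition thus has a single library without replicates, so no p-value is given, read depth is unknown, and which list stands for which condition rests on the sample titles. The abbreviations by which the 2 lists were deposited allow the opposite reading. Under that reading every direction given here would turn, and the members' peaks with pyruvate over those without would come to 1.92 in place of 0.520. All 8 muscle marker genes checked (Myog, Des, Ckm, Acta1, Chrna1, Ttn, Mef2c and Tnnc1) had a peak in the gene or a flank of 2000 bases in at least 1 list, as did 3 of 7 neuronal, 4 of 6 fibroblast and 3 of 4 endothelial markers. Ckm, which encodes muscle creatine kinase, had one in the list with pyruvate and none in the list without. Tubb3 and Nefm of the neuronal and Col3a1 and Dcn of the fibroblast markers had one in the list without pyruvate alone. The share over all genes was not available, because only genes met by a peak are named, so these counts do not identify the cells.

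MyoD is a basic helix-loop-helix transcription factor that binds the short DNA motif called the E-box, usually together with an E-protein partner, and it turns on the muscle programme. Much of its binding in muscle cells is known to lie away from gene starts, in introns and between genes, and long genes offer much of that intronic DNA. The 6 genes have unlike roles. Dlgap1 and Dlgap2 encode scaffold proteins of the postsynaptic density, Cdh13 encodes T-cadherin, a cadherin held in the membrane by a lipid anchor, and Sorcs2 encodes a receptor of the VPS10 (sortilin) family. Pde4d encodes an enzyme that breaks down the second messenger cAMP. Akap6 encodes an anchoring protein that holds protein kinase A, the main cAMP effector, at the nuclear envelope of striated muscle cells and is known to bind the Pde4d enzyme there.

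For 3 of the 6 genes the RefSeq table of promoters (GRCm38.p6, 250 bases before to 50 after a start) held an entry: Akap6, Dlgap1 with 2 windows, and Pde4d. Akap6 is shown because it is the one of these with a peak within 10 kb of the start listed in the files. That peak was in the list without pyruvate alone, 3094 bases into the gene. The window lies at chr12:52699133-52699432 on the plus strand of GRCm38.p6, while the peaks are in mm9, so whether a peak covers it was not determined. Capitals mark the letters CANNTG, the E-box, which reads the same on both strands.
Akap6 promoter: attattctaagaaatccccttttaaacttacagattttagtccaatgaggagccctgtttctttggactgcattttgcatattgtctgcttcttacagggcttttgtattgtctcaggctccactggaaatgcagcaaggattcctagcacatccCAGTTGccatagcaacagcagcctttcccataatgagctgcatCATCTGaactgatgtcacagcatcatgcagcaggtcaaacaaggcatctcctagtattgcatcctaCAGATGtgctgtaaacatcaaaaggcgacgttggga
It held 3 matches to CANNTG and 0 to CAGCTG or CACCTG (the last searched on both strands), E-box forms that MyoD is known to bind, both of which are also CANNTG. The Pde4d window held 5 matches, 1 of them CAGCTG and 1 CACCTG. The Dlgap1 windows held 1 and 5 matches, with 1 CAGCTG and 1 CACCTG in the window that held 5. Of all 32851 promoter windows in the table, 72.3% held CANNTG, 16.3% CAGCTG and 20.2% CACCTG, so these matches are common and describe letters, not binding sites.

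Every one of the 6 genes had fewer peaks in the list with pyruvate than in the list without. So did 69.4% of the other 706 genes with a listed body of at least 200 kb, so the direction was shared with most long genes. Those genes held a median of 3 peaks without pyruvate. Of the 8 among them with at least 14 peaks without pyruvate, as every member had, all 8 had fewer with pyruvate. These 8 were picked by their number in that list. Among the members the direction did not hold for all 6 under other settings. With the list without pyruvate limited to its widest peaks, as many as the other list holds, Akap6 had 10 peaks with pyruvate and 8 without. With peaks of at least 250 bases Sorcs2 had 8 in each. No share of the other long genes is given at these settings, and so limited the lists are of equal length by construction. Among all peaks, Dlgap1 held 10 peaks with pyruvate and 19 without, and Dlgap2 held 6 and 20. Cdh13 held 9 with pyruvate and 17 without, Pde4d 8 and 17, Sorcs2 10 and 15, and Akap6 10 and 14. For each peak in the list without pyruvate, Dlgap2 had 0.300 in the list with pyruvate, the lowest of the 6, and Akap6 had 0.714, the highest. The order was another one without narrow peaks. With peaks of at least 250 bases Pde4d was the lowest, with 3 peaks with pyruvate and 10 without, and Dlgap2 had 2 and 4. With the longer list limited to its widest peaks Dlgap1 was the lowest at 0.625, and Dlgap2 was at 0.667. Summed over the 6 genes this ratio was 0.520, and 0.573 without Dlgap2. It was 0.615 over the other long genes, 0.649 over all peaks in gene bodies and 0.616 over the whole lists. Over the 8 other long genes with at least 14 peaks without pyruvate it was 0.724. Of their 186 peaks with pyruvate and 257 without, Gm20388 held 98 and 121 and Fgfr2 held 27 and 40. The listed bodies of Gm20388 and Fgfr2, of 4435 and 3009 kb, were not checked, and the ratio without them was not computed.

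**Figure D1:**
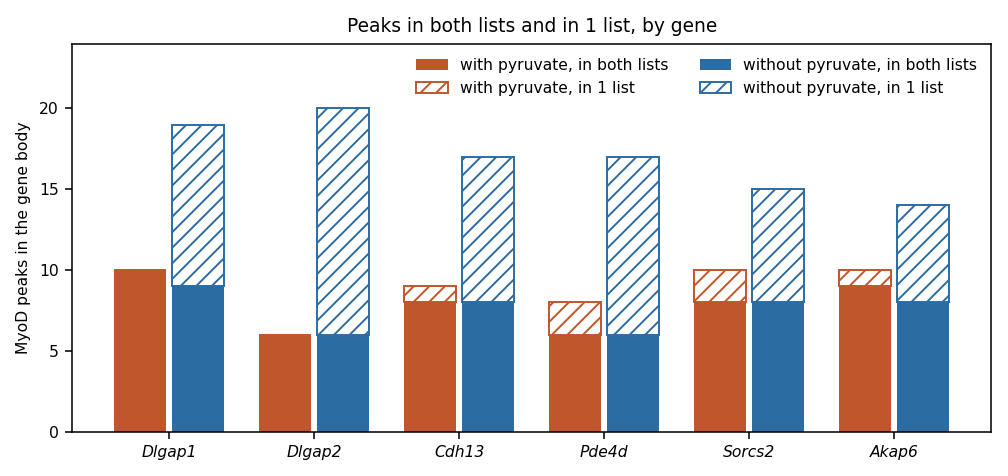
Number of MyoD peaks in the body of each gene, in the list with pyruvate (orange) and the list without (blue). Filled bars are peaks that overlap a peak of the other list by at least 1 base and hatched bars are peaks without a partner. In Dlgap1 and Dlgap2 all peaks of the list with pyruvate had a partner, and Dlgap2 had 14 peaks without one in the list without pyruvate.

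Per unit of length the 6 genes were not alike. The gene bodies range in length from 381 kb (Sorcs2) through 452 kb (Akap6), 752 kb (Dlgap2), 852 kb (Dlgap1) and 1041 kb (Cdh13) to 1504 kb (Pde4d). Sorcs2 was the densest, with 2.62 peaks per 100 kb with pyruvate (95% exact Poisson interval 1.26 to 4.83) and 3.94 without (2.20 to 6.49). Akap6 followed, with 2.21 per 100 kb (1.06 to 4.07) with pyruvate and 3.10 (1.69 to 5.20) without. The Poisson intervals of this pair overlap in each list, so their order is within counting error.

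Dlgap1 had 1.17 peaks per 100 kb (0.563 to 2.16) with pyruvate and 2.23 (1.34 to 3.48) without. For Dlgap2 the densities were 0.798 (0.293 to 1.74) with pyruvate and 2.66 (1.62 to 4.11) without. The intervals of these scaffold genes overlap in both lists. Without pyruvate their order depended on narrow peaks: with peaks of at least 250 bases Dlgap2 had 0.532 and Dlgap1 1.41, and with that list limited to its widest peaks Dlgap2 had 1.20 and Dlgap1 1.88. Cdh13 had 0.864 per 100 kb (0.395 to 1.64) with pyruvate and 1.63 (0.951 to 2.61) without. Pde4d, the longest of the 6, had the lowest density in each list, 0.532 per 100 kb (0.230 to 1.05) with pyruvate and 1.13 (0.659 to 1.81) without. With peaks of at least 250 bases, Pde4d had 0.665 without pyruvate and Dlgap2, at 0.532, was the lower. The intervals cover counting error only.

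Over all 6 bodies the density was 1.06 peaks per 100 kb (0.797 to 1.39) with pyruvate and 2.05 (1.67 to 2.49) without, against 0.604 and 0.982 in the other long genes. With peaks of at least 250 bases alone, these member densities were 0.582 and 1.00. Their pooled density lay above that of 77.8% of the other long genes with pyruvate and of 84.1% without. These shares and the densities of the other long genes leave out long genes that no peak of either list touched. The files name a gene only where a peak meets it, so those densities are higher than with such genes included. Among the 712 long genes, members included, Sorcs2 ranked 25 by density with pyruvate and 21 without, Akap6 ranked 41 and 44, and Pde4d ranked 316 and 286. By number of peaks the order was different: in the list without pyruvate Dlgap2 ranked 3, Dlgap1 4, Cdh13 and Pde4d 7, Sorcs2 10 and Akap6 12. The genes above Dlgap2 were Gm20388 and Fgfr2, with 121 and 40 peaks there in listed bodies of 4435 and 3009 kb. These lengths were kept as deposited, also in the pooled densities of the other long genes, and were not checked against an annotation. At least as many peaks as in Akap6 were found in 8 other long genes in the list without pyruvate. With pyruvate the ranks by number were 11 for Dlgap1, Sorcs2 and Akap6, 20 for Cdh13, 28 for Pde4d and 49 for Dlgap2. There 72 other long genes held at least as many peaks as Dlgap2, the lowest member.

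**Figure D2:**
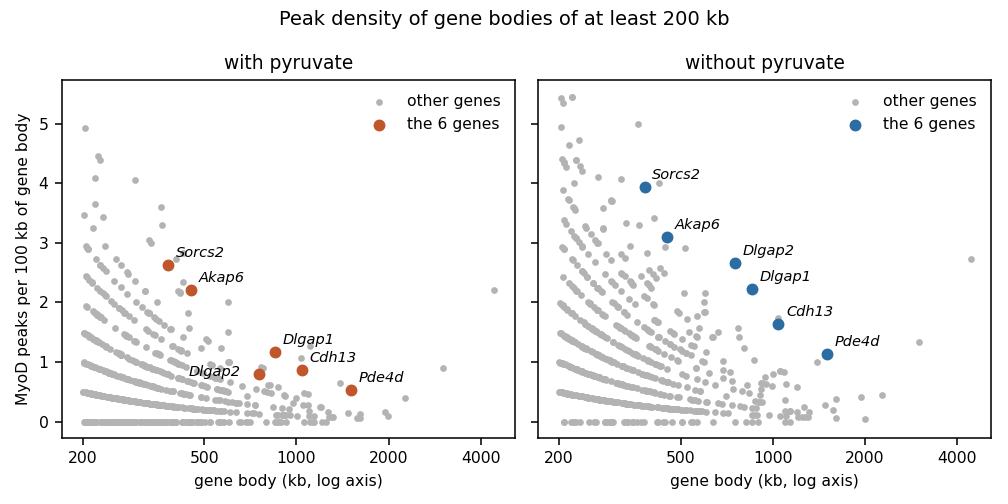
MyoD peaks per 100 kb of gene body (vertical axis) against length of the gene body in kb (horizontal log axis) for the 712 genes with a listed body of at least 200 kb, with pyruvate on the left and without on the right. Grey points are the other genes and coloured points the 6 described here. Sorcs2 and Akap6 are the densest of the 6 in both panels and Pde4d the sparsest. The grey arcs are genes with the same number of peaks.

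Denser long genes than any of the 6 existed in each list, 24 with pyruvate and 20 without. The densest with pyruvate were St3gal3 (4.93 per 100 kb), Runx1 (4.45), Tead1 (4.40), Ttc7b (4.09) and Rptor (4.04), and without pyruvate Ttc7b (5.45), Gfra1 (5.45), St3gal3 (5.43), Sdccag8 (5.35) and 2010111I01Rik (4.98). Runx1 and Tead1 encode transcription factors and Rptor a component of the mTOR complex. The bodies of these genes are 203 to 297 kb long, and that of 2010111I01Rik 361 kb, all shorter than any of the 6. Nearest to the median of the 6 genes (802 kb, 9.5 peaks with pyruvate and 17 without) in length and both peak numbers were 1700112E06Rik, Zbtb20 and Arhgap26. They held 11, 7 and 7 peaks with pyruvate and 18, 12 and 11 without, at summed log2 differences of 0.645, 0.922 and 1.02.

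The peaks of the list with pyruvate mostly lay where the other list also had one. Of the 53, 47 shared 1 base or more with a peak of the list without pyruvate, which is 88.7% (77.0 to 95.7, 95% exact binomial interval), against 70.8% of the peaks in other long genes and 71.5% in all gene bodies. Of the 102 peaks of the list without pyruvate, 45 overlapped the list with pyruvate, or 44.1% (34.3 to 54.3), against 43.5% in other long genes and 46.5% in all gene bodies. With all peaks, the share was thus above the background for the list with pyruvate and near it for the list without. With peaks of at least 250 bases the share with pyruvate was 65.5%. It was 75.5% with the longer list limited to its widest peaks. No background is given at those settings. No test was made because the genes were chosen from these same lists.

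All 10 peaks of Dlgap1 and all 6 of Dlgap2 in the list with pyruvate had a partner, as did 8 of 9 in Cdh13, 6 of 8 in Pde4d, 8 of 10 in Sorcs2 and 9 of 10 in Akap6. In the list without pyruvate, 9 of 19 had one in Dlgap1, 6 of 20 in Dlgap2, 8 of 17 in Cdh13, 6 of 17 in Pde4d, 8 of 15 in Sorcs2 and 8 of 14 in Akap6. The counts of partners differ within Dlgap1 and Akap6 because in each gene 1 peak of the list without pyruvate met 2 of the other list. In Akap6 those 2 peaks, at chr12:53948930-53949135 and chr12:53949048-53949228, also overlap each other, which happened at 3 places in the list with pyruvate and at 14 in the list without.

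Only 6 peaks of the list with pyruvate lacked a partner in these genes. The widest was in Sorcs2, 582 bases at chr5:36508219-36508801, wider than all but 1.79% of its list, and the nearest peak without pyruvate was 31.4 kb away. In Pde4d a pair of 244 and 196 bases, at chr13:110578874-110579118 and chr13:110580472-110580668, lay 72.9 kb or more from any peak of the other list. The others were 257 bases wide in Sorcs2, 251 in Akap6 and 208 in Cdh13.

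The list without pyruvate had 57 peaks without a partner, 144 to 614 bases wide, and 4 of these were at least 400 bases wide. Dlgap2 held 2 of them, 498 bases at chr8:14408839-14409337 and 471 bases at chr8:14411587-14412058. They lie close together, and the nearest peak with pyruvate was 83.2 kb from the first. Cdh13 held the widest, 614 bases at chr8:120946243-120946857, and Pde4d held one of 444 bases at chr13:110505482-110505926. Of the 57, 12 lay within 5 kb of a peak with pyruvate and 39 lay more than 20 kb from any.

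Peak width, the one measure per peak that the files give, had a median near the background over the 6 genes together. The median was 251 bases (interquartile range 202 to 329) with pyruvate and 244 (210 to 320) without, against 249 and 240 over all gene bodies. Sorcs2 had the widest peaks with pyruvate, with a median of 403.5 bases there and 254 without. Dlgap2 had the lowest median in both lists, 202 bases with pyruvate and 214.5 without. Peaks with a partner had a median of 260 bases with pyruvate and 287 without, and those lacking one 248 and 223. Wide peaks were more frequent than in the background. Peaks of at least 500 bases made up 9.43% of the members' peaks with pyruvate (5 of 53) and 7.84% without (8 of 102). The shares were 3.95% and 3.66% over all gene bodies and 3.68% and 3.90% in other long genes. Those with pyruvate were 828, 695, 639 and 582 bases wide in Sorcs2 and 531 in Cdh13. Those without lay in Sorcs2, Cdh13, Dlgap1 and Akap6.

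The widest peaks of Sorcs2 were nearly the same in the 2 lists. Its widest was 828 bases with pyruvate (chr5:36720180-36721008), with 23 wider peaks in the whole list, and 820 bases without (chr5:36720196-36721016), also with 23 wider. It lies about 20.2 kb into the gene, and a second wide pair of 639 bases with pyruvate and 611 without lay close by, 24.6 kb from the start. At the other end of Sorcs2, 328 kb from the start, the peak was 695 bases with pyruvate and 739 without.

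With pyruvate the widest peaks of the other genes were narrower than that of Sorcs2, at most 531 bases. At the widest site of Dlgap1 the list with pyruvate had separate peaks of 209 and 374 bases, the second its widest in that gene, and the list without had a single peak of 838 bases (chr17:71087427-71088265). The widest Akap6 peak with pyruvate was 388 bases (chr12:53936258-53936646), where the list without had 421. At the widest Akap6 site without pyruvate the peak was 372 bases with pyruvate and 590 without (chr12:53955088-53955678). In Pde4d the widest site was one and the same, 462 bases with pyruvate and 487 without, 781 kb from the start.

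In Cdh13 the widest peak with pyruvate, 531 bases at chr8:120810479-120811010, met one of 287 bases without. Another site had 397 bases with pyruvate and 542 without (chr8:121510637-121511179), the widest shared peak of the list without. The gene thus had sites that were wider in either list. In Dlgap2 the widest peak with pyruvate was 281 bases, at chr8:14651424-14651705, with a partner of 210 bases without. Where the shared peak without pyruvate was widest, the widths were 196 bases with pyruvate and 266 without.

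Where peaks paired one to one between the lists, 43 pairs in all, the peak with pyruvate was the wider in 13, or 30.2% (95% exact binomial interval 17.2 to 46.1), against 36.6% in other long genes and 39.3% over all gene bodies. The median difference, with pyruvate minus without, was -44 bases, against -28.5 in other long genes and -20 over all gene bodies. In Akap6 the peak with pyruvate was the narrower in 7 of 7 pairs, by a median of 89 bases, while Sorcs2 had 4 pairs in each direction and Dlgap2 3 in each. Dlgap1 had 2 wider with pyruvate and 6 narrower, Cdh13 3 and 5, and Pde4d 1 and 5. Paired peaks sat at almost the same place, with centres a median of 20.5 bases apart in the 6 genes and 17.5 over all gene bodies.

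**Figure D3:**
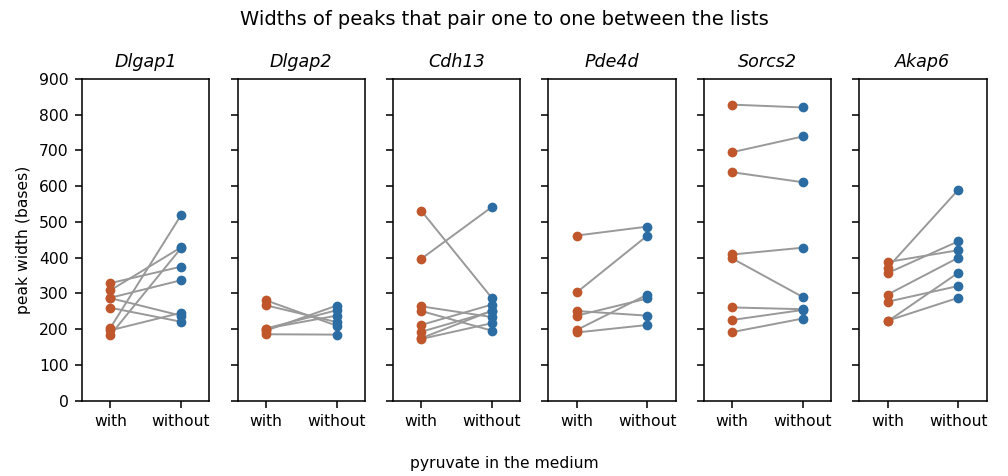
Width in bases of each MyoD peak that pairs one to one between the lists, with pyruvate on the left and without on the right of each panel, 1 panel per gene and a line for each pair. In Akap6 the left-hand point is the lower in all 7 pairs, whereas in Sorcs2 it is the higher in 4 pairs and the lower in 4.

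The position of the peaks differed between the genes. Counted from the start of the gene body, Cdh13 had its peaks at the front, with 6 of 9 with pyruvate and 13 of 17 without in the first of 3 equal parts. Dlgap1 and Dlgap2 had theirs at the back, with 9 of 10 and 5 of 6 with pyruvate and 13 of 19 and 13 of 20 without in the last of these parts. Pde4d had 0, 2 and 6 peaks in the successive parts with pyruvate and 4, 5 and 8 without, and Akap6 had 6, 4 and 0 with pyruvate and 8, 4 and 2 without. Sorcs2 had peaks at both ends, with 5, 2 and 3 with pyruvate and 8, 1 and 6 without.

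Together, 35.8% of the members' peaks with pyruvate (95% exact binomial interval 23.1 to 50.2) and 36.3% without (27.0 to 46.4) were in the part nearest the start. The middle part held 17.0% with pyruvate (8.07 to 29.8) and 19.6% without (12.4 to 28.6), and the last 47.2% (33.3 to 61.4) and 44.1% (34.3 to 54.3). In the other long genes the 3 parts were nearly even, at 33.9%, 32.4% and 33.7% with pyruvate and 34.9%, 31.5% and 33.6% without. The middle share was the one whose interval did not meet that of the other long genes, which was 30.2 to 34.7 with pyruvate and 29.8 to 33.2 without. Neighbouring peaks and peaks in both lists are not independent, which these intervals do not allow for, and no test was made.

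**Figure D4:**
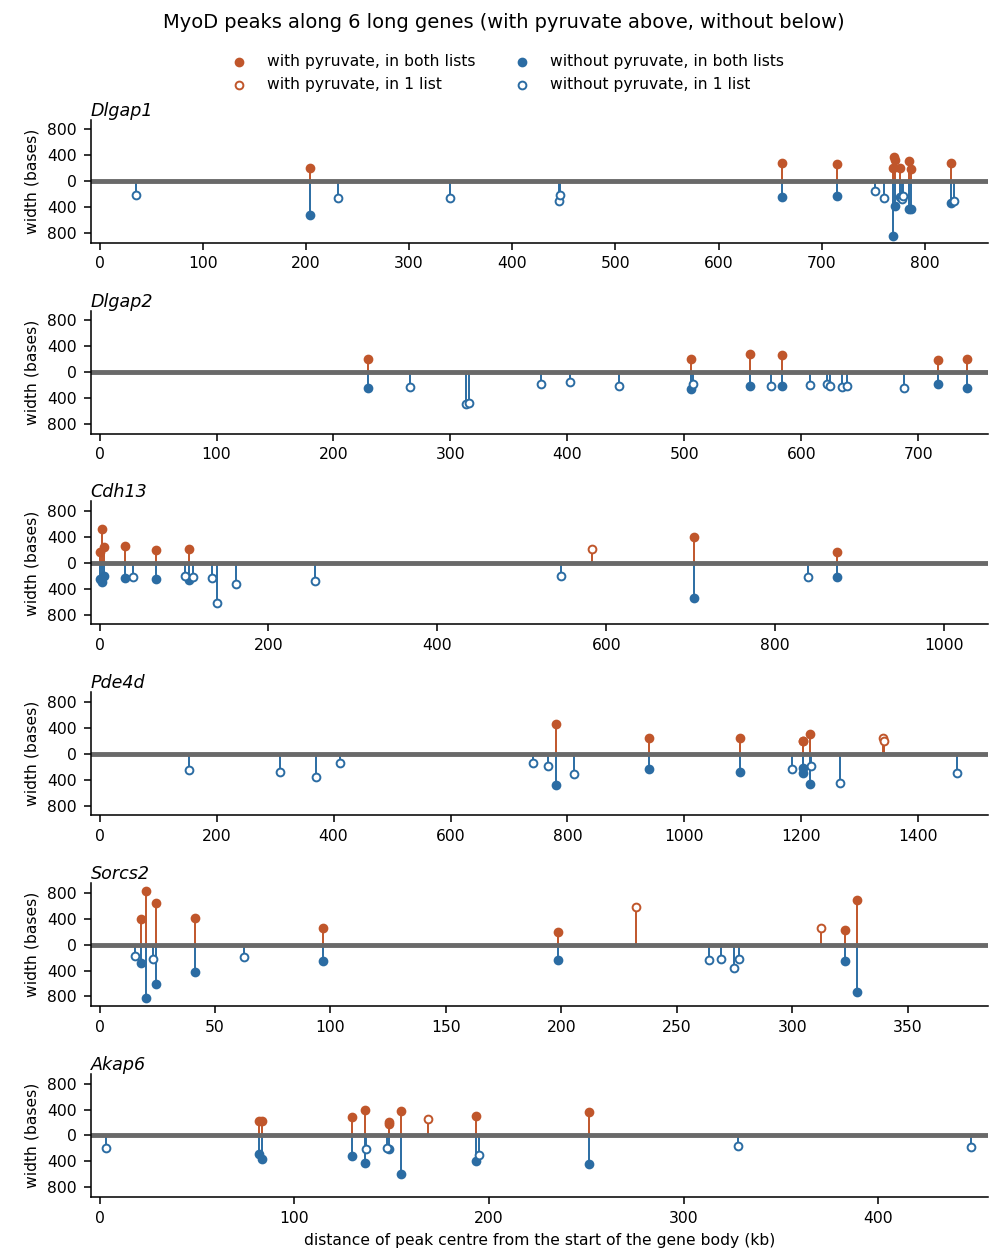
Each MyoD peak along the body of the 6 genes, by distance of its centre from the gene start in kb (horizontal axis, a scale per gene), with its width in bases as the height of the line, upward for the list with pyruvate and downward for the list without. Filled circles overlap a peak of the other list and open circles do not. Peaks of Cdh13 gather at the start and those of Dlgap1 near the end, and the first 781 kb of Pde4d hold peaks of the list without pyruvate alone.

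Cdh13 was the one gene with a peak near its start in both lists, centred 790 bases into the gene with pyruvate (175 bases wide, chr8:120808336-120808511) and 752 bases without (252 bases wide). Another 2 shared peaks followed within 6 kb. In the list without pyruvate Sorcs2 had a peak of 163 bases upstream, 980 bases before its start (chr5:36741686-36741849), with no partner and outside the body counted above. In the remaining genes the first peak with pyruvate lay 17.9 kb (Sorcs2), 81.9 kb (Akap6), 204 kb (Dlgap1), 230 kb (Dlgap2) and 781 kb (Pde4d) from the start. Without pyruvate it lay at 15.2, 3.09, 35.7, 230 and 154 kb in the same genes, so Dlgap2 began at a shared site in both lists.

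Within 10 kb of a start lay 3 of the 53 peaks with pyruvate (5.66%) and 4 of the 102 without (3.92%), against 3.20% and 3.65% in the other long genes. All 6 genes also had long stretches with no peak. The longest in Pde4d was its first 781 kb with pyruvate, or 51.9% of the gene, in which the list without pyruvate had 6 peaks, 144 to 361 bases wide. Without pyruvate the longest was 330 kb. Dlgap1 had 457 kb with pyruvate, between 204 and 661 kb from the start, and 215 kb without. The longest stretch with pyruvate was 477 kb in Cdh13, 276 kb in Dlgap2, 200 kb in Akap6 and 102 kb in Sorcs2, and without pyruvate 291, 230, 119 and 102 kb in these genes.

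In places peaks lay in tight groups, which were not compared with groups in the other long genes. The tightest was in Dlgap1, where 6 of its 10 peaks with pyruvate lay within 17.1 kb and 7 of its 19 without lay within 16.8 kb, both about 769 to 786 kb from the start. Part of this stretch is also the body (chr17:71094669-71104922, minus strand) or flank of a gene that the files list as ENSMUSG00000087105 without a symbol. The other genes had at most 4 peaks with pyruvate in any 20 kb (Akap6) and at most 5 without (Akap6 and Sorcs2). In Dlgap2 neighbouring peaks with pyruvate were all at least 25.1 kb apart, while 4 peaks without pyruvate lay within 16.8 kb. Over the 6 genes, 11 of 47 spacings between neighbouring peaks were under 5 kb with pyruvate (23.4%, 12.3 to 38.0) and 24 of 96 without (25%, 16.7 to 34.9). In the other long genes, which were less dense in peaks, the shares were 19.1% and 19.7%. Both lie within the members' intervals, so close spacing was near the background.

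Lists of genes of the same families placed the members among their relatives. The lists and members were chosen with earlier results of these data known. As background, of the 5793 genes with a listed body 55.1% had a body peak in both lists, 9.89% with pyruvate alone and 35.0% without pyruvate alone. The family counts include the members, which were chosen for their peaks, so part of each count was fixed in advance. The share of all genes that are named was not available, because only genes met by a peak are named. Of 14 genes of Dlgap proteins and their postsynaptic partners, 6 were named in the files, all with a body peak in both lists. Besides the members, Dlgap4 held 7 peaks with pyruvate and 3 without, Dlg2 3 and 8, Shank2 2 and 1, and Homer1 1 and 1. Dlgap4 thus ran in the opposite direction from Dlgap1 and Dlgap2 and, at 151 kb, had 4.65 peaks per 100 kb with pyruvate and 1.99 without. Dlg2, longer than any member at 1945 kb, had 0.154 and 0.411.

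Of 21 cadherin genes, 10 were named, 7 with a body peak in both lists and 3 (Cdh1, Cdh4 and Cdh17) in the list without pyruvate alone. Cdh15, which encodes M-cadherin of muscle, had 4 peaks in each list in 19.4 kb, or 20.6 per 100 kb, and all 4 had a partner. Cdh18, close to Cdh13 in length at 925 kb, held 1 peak with pyruvate and 6 without. Cdh23 held 5 and 9, and Cdh2, which encodes N-cadherin, 3 and 5.

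Genes of cAMP signalling included the relatives of Pde4d and Akap6. Of 18 phosphodiesterase genes 13 were named: 8 had a body peak in both lists, 3 with pyruvate alone (Pde1c, Pde3a and Pde9a), 1 without pyruvate alone (Pde7b), and Pde8a a flank peak. Pde4b, of the same subfamily as Pde4d, held 5 peaks with pyruvate and 6 without in 520 kb, and Pde10a held 3 and 7. Of 19 genes for kinase A and its anchoring proteins 12 were named, 9 with a body peak in both lists, 2 (Akap10 and Prkacb) without pyruvate alone and Akap11 with a flank peak. Prkar1b, which encodes a regulatory subunit of kinase A, held 8 peaks with pyruvate and 7 without in 133 kb, and Akap13 held 3 and 7. Akap6 had the most peaks of this list in both conditions, but it was chosen for its number of peaks and has the longest listed body here, at 452 kb. Per 100 kb it had 2.21 with pyruvate and 3.10 without, below Prkar1b at 6.03 and 5.28. Prkar1a, Prkaca and Prkar2b were also denser than Akap6 in both lists, but on few peaks in shorter bodies. Prkar1a held 1 peak with pyruvate and 2 without in 20.3 kb, Prkaca 1 and 1 in 23.5 kb, and Prkar2b 3 and 6 in 103 kb.

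Of 5 genes of the VPS10 receptor family, Sorcs2 stood beside Sorcs1, with 1 peak with pyruvate and 2 without in 535 kb, and Sorl1, with 0 and 1. A further list named 30 genes known for their length, of which 19 appear in the files. Most held few peaks, among them Fhit with 1 in each list in 1612 kb. Auts2 held 14 peaks with pyruvate and 7 without in 1106 kb, the reverse of the order in all 6 members. Ptprd held 9 and 10 in 2271 kb, or 0.396 and 0.440 per 100 kb, below Pde4d in both lists.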

How the data were processed

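Per the submitters' processing notes, the tools were MACS2 2.1.1, Bowtie2 2.1.0 and bcl2fastq 2.19 and the build was mm9. The threshold for peaks and how the inputs entered were not given in the sources used here, nor was the annotation. Files as deposited give each peak with every gene body or 2000-base flank it touches, per the file headers and the values, with 13076 rows with pyruvate and 20902 without. The fold enrichment columns the authors deposited hold 0 wherever they hold a number (0 values differ), so width (end minus start) was the only measure per peak. Width also depends on depth, which was not known, and on fragment length, for which the labels give 250 bases in all 4 samples.

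Rows were reduced to distinct peaks. Peaks touching a body were assigned to it as deposited, and this was checked against the coordinates. A region of exactly 2000 bases was taken as a flank. The members and lists were chosen with earlier results of these data known. Named beyond the members were the 5 densest long genes of each list, the 3 nearest to the members' median and relatives from fixed lists with a peak. Which relatives are given with values was decided with the values known. Alternatives are in the closing part. The overlap code was tested on simulated data. Software was matplotlib 3.10.9, scipy 1.17.1, pandas 2.3.3 and numpy 2.4.6 under Python 3.11.15.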

Additional observations from a re-analysis of the deposited data

How the results depend on the processing

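Values are for the members, with pyruvate and then without. With peaks of at least 250 bases, the density was 0.582 and 1.00 per 100 kb and the shared share with pyruvate 65.5%. With the longer list limited to its widest peaks, as many as the shorter holds, its density was 1.39, the ratio of peak numbers 0.768 and the shared shares 75.5% and 56.5%. Fewer peaks enter by construction. With the longer list so limited the lists are equal in length, so 0.768 does not compare with the 0.616 of the whole lists. No ratio of the other long genes is given at that setting. Against other genes of at least 100 kb the members lay above 68.0% and 74.2%, and of at least 500 kb, where 4 members qualify, above 87.7% and 94.2%. The first 10% of the gene held 15.1% and 13.7% of peaks, and the first 10 kb 5.66% and 3.92%, being shorter windows. Reciprocal overlap of 50% and centres within 100 bases each gave shared shares of 79.2% and 40.2%, within the counting interval. The ratio's alternatives were chosen after seeing the data. No paired analysis was possible because each condition has 1 ChIP library. Leaving Gm20388 and Fgfr2 out of the other long genes, an alternative chosen after seeing the data, gave 77.8% and 84.2%. Among main results 17 alternatives stayed within the counting interval and 15 moved. Among densities of single genes 41 stayed and 7 moved, all 7 to lower values and under settings that leave out narrow peaks. Some that stayed could not move, such as densities with pyruvate where only the other list was limited. These counts alone therefore do not show how firm the results are. With depth unknown, absence from a list may mean a peak under its detection limit.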
